A study of Homo sapiens with 4 samples.

Results

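CDK6, CCND1 and CDK1 are genes of the cell cycle machinery, and their transcripts were followed here through the RNA that came down with Flag-tagged AKT1 E17K. Their peaks were chosen by position from the Flag-AKT1 E17K peak list: every peak that overlapped the span of 1 of the 3 genes in the RefSeq annotation of GRCh38.p14 was taken. This gave 12 of 4838 peaks, 9 of them in CDK6 (gene ID 1021), 2 in CDK1 (983) and 1 in CCND1 (595). The genes themselves were picked from the read numbers, because a CDK6 peak with 34 immunoprecipitate and 3 input reads has the highest ratio of the list when very low input numbers are raised to 3. The values of that peak are therefore a description, and no test was run on any ratio of immunoprecipitate to input. The question was whether the high ratio recurs in the other peaks of CDK6.

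The cells were MDA-MB-231, a line from a human breast cancer, transfected with a plasmid for Flag-tagged AKT1, either wild-type (Flag-AKT1 WT) or with the E17K change. E17K lies in the lipid-binding domain of the kinase AKT1 and keeps it at the membrane and active. RNA immunoprecipitation was carried out with an antibody to Flag, and the lysate before immunoprecipitation served as input, which gave 4 libraries: E17K immunoprecipitate, E17K input, WT immunoprecipitate and WT input. Each had 1 library and no replicate, and the tagged protein came from a plasmid on top of the AKT1 of the cells. The lists call the second read number a control and do not say of what, and here it is read as the input, the only other library that the sample titles name, although the protocol also mentions control IgG.

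CDK6 is a kinase that binds D-type cyclins in G1 phase, and CCND1 encodes cyclin D1, one of its partners. Together they phosphorylate the retinoblastoma protein, which releases E2F transcription factors and lets cells enter S phase. CDK1 acts later, with cyclins A and B, and drives entry into mitosis, so its main role lies after G1. AKT is known to raise cyclin D1, in part by inhibiting GSK3β, the kinase that marks cyclin D1 for degradation.

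The Flag-AKT1 E17K list held 484463 immunoprecipitate and 248412 input reads inside its peaks, and the Flag-AKT1 WT list 51123 and 52223 in 808 peaks. Library totals are not given, so depth is known only inside peaks and ratios were not scaled for library size. The median ratio of the E17K list was 2.18 (quartiles 1.83 and 2.75). That list has 5 peaks at AKT1, the gene on the plasmid, with 73374 and 48883 reads, and the WT list has 0. The WT plasmid also carries AKT1, so the WT list only lacks read numbers there, which is not read as absence of AKT1 RNA. Of genes known for high expression in MDA-MB-231, VIM, CD44 and CAV1 had peaks and TGFBI, ANXA1 and S100A10 had none. A gene without a peak simply has no read numbers, and TGFBI and ANXA1 lie on strand labels without any E17K peak. Peaks were found for 0 of 6 genes that mark luminal breast or other cells, ESR1 and PTPRC among them. Of the 4 of these genes with a known strand, 3 lie on strand labels with at least 10 E17K peaks. On such labels 14.0% of coding genes had a peak, so nothing is read from the 0. Although the submitters' processing notes name hg18, 98.9% of the E17K peaks fell in a GRCh38 gene span, compared to 61.7% after a shift of 1000000 bp, and positions are read as GRCh38. The strand label of a peak was opposite to that of its gene in 2982 of 2992 peaks (99.7%) with 1 coding gene of known strand. None of the 12 peaks overlapped the span of a second gene, and the 11 in CDK6 and CDK1, whose strand is known from the RefSeq promoter table, all had the opposite label.

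CDK6 had more immunoprecipitate than input reads in all 9 peaks, with 651 and 230 reads in total. The pooled ratio was 2.83 (exact 95% interval 2.43 to 3.30, counting error only, as for all intervals here). Of the 1936 genes with an E17K peak, CDK6 ranked 161 by immunoprecipitate reads, 74 by number of peaks and 300 by pooled ratio. Most of the reads inside its peaks lay near the 3′ end of the gene. CDK6 runs on the minus strand of chromosome 7, and 7 of its peaks were found between 95 and 10414 bp from the 3′ end of its span of 231653 bp. These 7 peaks covered 47.9% of that stretch. They carried 89.7% of the immunoprecipitate reads inside CDK6 peaks and 88.7% of the input reads inside them, and reads outside peaks are not given. The annotation used here has no exons, so the peaks are not assigned to coding or untranslated sequence.

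**Figure D1:**
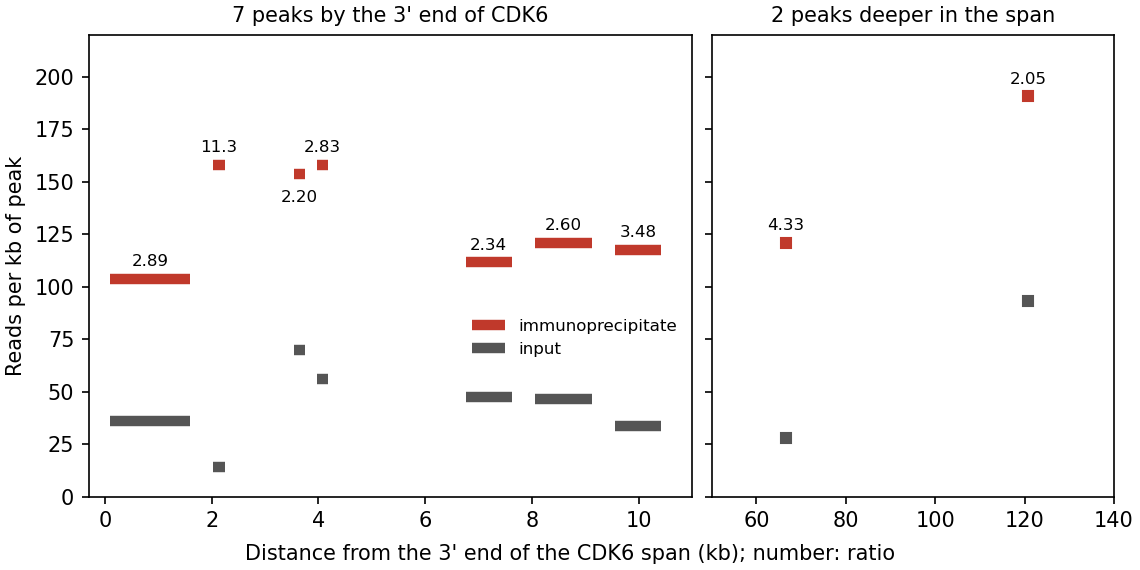
Reads per kb of peak of the Flag-AKT1 E17K immunoprecipitate (red) and input (grey) for the 9 CDK6 peaks, against the distance in kb from the 3′ end of the gene span, with the ratio printed by each peak. Bars in the left panel have the width of the peaks, and squares in the right panel mark the centres of 2 single-unit peaks. The immunoprecipitate lies between 104 and 191 reads per kb, while the input of the second peak, at 14.0 reads per kb, is the lowest of the gene.

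Peaks are numbered from the 3′ end. The first and widest peak, from 92605016 to 92606520, had 156 reads in the immunoprecipitate and 54 in the input, a ratio of 2.89 (interval 2.11 to 4.01). The second, from 92606951 to 92607165, held 34 and 3 reads, a ratio of 11.3 (interval 3.56 to 57.7). It is the peak for which CDK6 was picked, and it rests on the lowest input number of the 12 peaks. The third peak held 33 and 15 reads (ratio 2.20) and the fourth 34 and 12 (ratio 2.83), both within 4179 bp of the 3′ end. The fifth held 96 and 41 reads (ratio 2.34), the sixth 130 and 50 (ratio 2.60) and the seventh, from 92614476 to 92615335, 101 and 29 (ratio 3.48, interval 2.29 to 5.46). The first 7 peaks thus ran from 2.20 to 11.3, and without the second peak from 2.20 to 3.48. The eighth peak lay 66530 bp into the span, with 26 and 6 reads (ratio 4.33, interval 1.74 to 12.9). The ninth, 120710 bp from the 3′ end, held 41 and 20 reads, and its ratio of 2.05 was the lowest of the gene and the only one of the 9 below the list median.

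No other CDK6 peak reached the ratio of the second peak. With 3 input reads its interval is wide, and the intervals of 7 of the 8 other CDK6 peaks overlapped it. The next highest was 4.33, and the 8 others together held 617 and 227 reads, a pooled ratio of 2.72 (interval 2.33 to 3.18). Since the second peak was chosen for its height, the choice itself placed the others below it. Leaving the second peak out moved the pooled ratio of CDK6 from 2.83 to 2.72. The median pooled ratio of all 1936 genes with an E17K peak was 2.13.

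**Figure D2:**
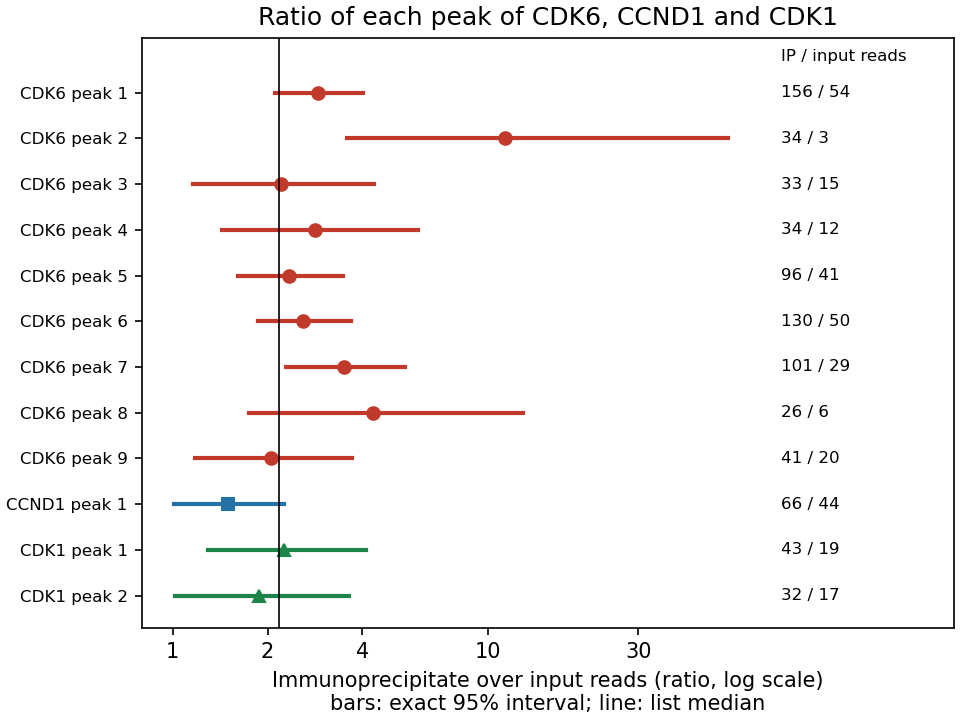
Ratio of immunoprecipitate to input reads (log scale) for the 12 peaks of CDK6, CCND1 and CDK1 in the Flag-AKT1 E17K list, with exact 95% intervals as bars, both read numbers on the right and the list median of 2.18 as a line. The second CDK6 peak stands to the right of the others with the widest interval, 3.56 to 57.7.

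The second peak held as many immunoprecipitate reads as its neighbours of the same width, and fewer input reads. Peak widths on the plus label of chromosome 7 are all multiples of 215 bp, and 5 of the CDK6 peaks are 1 such unit wide. In these 5 peaks of equal width the immunoprecipitate held 34, 33, 34, 26 and 41 reads, in order from the 3′ end, and the input 3, 15, 12, 6 and 20. The highest immunoprecipitate number was 1.58 times the lowest, and the highest input number 6.67 times the lowest. The lowest input number is that of the second peak, which was chosen for its high ratio, so nothing is read from this contrast. Per kb of peak, the second and the fourth peak had the same immunoprecipitate level of 158 reads, with 14.0 and 55.8 input reads. The 5 single-unit peaks pooled to a ratio of 3 (interval 2.20 to 4.14), and the 4 wider peaks to 2.78 (interval 2.33 to 3.32). Without the second peak, the 4 other single-unit peaks pooled to 2.53 (interval 1.83 to 3.54). That value leaves out a peak chosen for its height from 1 group only, so the groups are not compared by it. For the second peak, the score and p-value of the list come from a peak caller that is not named in the sources used here. Nothing about the ratio of this peak is read from them. Its log odds score of 29.96 ranked 2505 of 4838 and its p-value of 1.05e-32 ranked 2154, whereas the ninth peak, with the lowest ratio, had the highest score of the gene, 84.4.

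In the 574 peaks with 30 to 40 immunoprecipitate reads the input had a median of 15 reads (quartiles 12 and 19), and the 141 peaks with 3 input reads had a median of 14 immunoprecipitate reads. Nothing is read from the place of the CDK6 peak in these classes, because it was chosen for a high ratio. High ratios in the list went with few input reads. Of the 309 peaks with 3 or fewer input reads (6.39% of the list), 282 had a ratio of at least 4. The list holds no peak under 11 immunoprecipitate reads, so the lowest ratio such a peak can have is 3.67. Of the 1130 peaks with 4 to 9 input reads, 155 reached a ratio of 4, of the 1688 with 10 to 29 it was 17, and of the 1711 with 30 or more it was 0. Over the whole list 454 peaks (9.38%) had a ratio of at least 4, and 981 (20.3%) a ratio of at least 3. Among the 12 peaks described here 2 had a ratio of at least 4, the second and the eighth CDK6 peak, and 3 a ratio of at least 3. Both are single-unit peaks with 3 and 6 input reads, and 75 of the 379 single-unit peaks (19.8%) on the plus label of chromosome 7 had a ratio of at least 4. The CDK6 peak with the highest ratio among those with at least 10 input reads was the seventh, which ranked 65 of 3399 such peaks at 3.48, in a class where the highest ratio was 4.91.

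**Figure D3:**
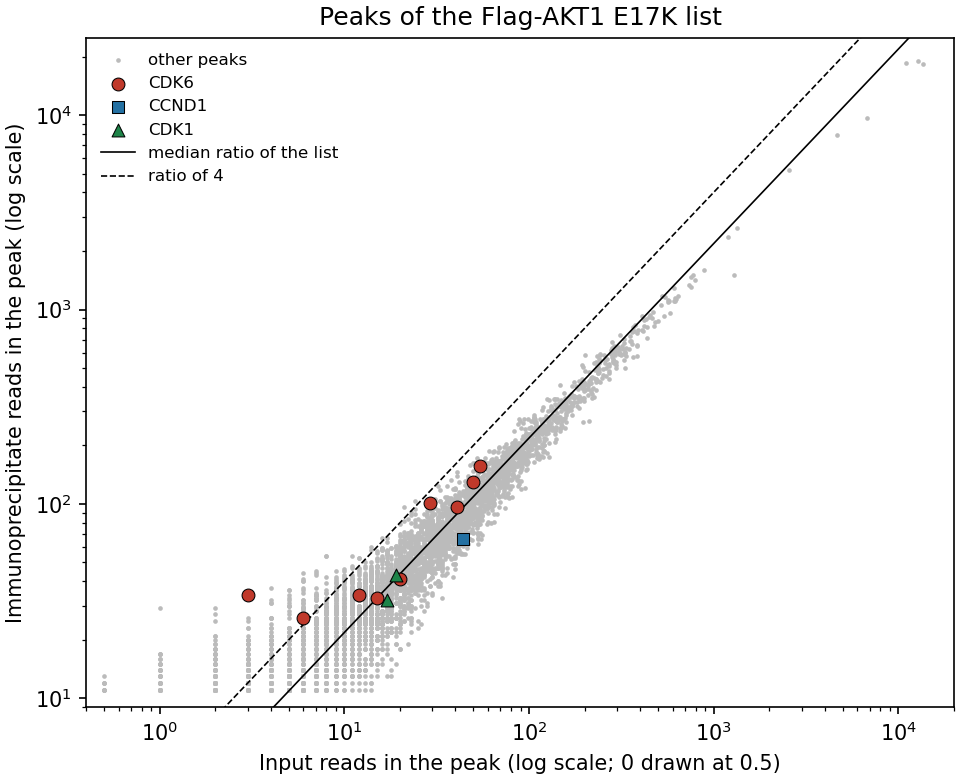
Immunoprecipitate against input reads for all 4838 peaks of the Flag-AKT1 E17K list (both axes on a log scale, 0 input reads drawn at 0.5), with the peaks of CDK6, CCND1 and CDK1 in colour and lines at the list median of 2.18 and at a ratio of 4. The ratios spread widely where input reads are few, and the CDK6 peak with 34 and 3 reads lies in that part of the plot.

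The place of the second CDK6 peak in the list depended on how low input numbers were handled. By the plain ratio, with 0 input reads counted as 3, it ranked 39, among 39 peaks (0.806%) with a ratio at or above 11.3. This rule placed the 9 peaks with 0 input reads below the CDK6 peak, although their ratio has no upper bound. The 38 peaks above it had 12 to 29 immunoprecipitate reads, with 1 input read in 35 of them and 2 in 3. The highest lay in SLK, which encodes a Ste20-like kinase, with 29 reads and 1 read (ratio 29, interval 4.81 to 1184). Next came TUT1, PJA2 and STAMBPL1 with 17 reads and 1 read each. Peaks in WASL and KMT2C followed with 16 and 1, and those in NUP155, DHX29, SIK3 and FAM91A1 with 15 and 1, where the DHX29 peak also lies in CCNO-DT and the SIK3 peak in APOA1-AS. With input numbers of 3 or fewer counted as 3, the CDK6 peak came first, followed by GUSB and SLK at 9.67 and NEAT1 at 9.25. Ordered by the lower end of the exact interval, it ranked 3. The first rank that led to the choice of CDK6 thus held under 1 of these 3 orders.

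A highest peak several times the pooled ratio of the remaining ones was also seen in other genes. Among the 645 genes with at least 3 peaks, the highest peak of CDK6 was 4.17 times the pooled ratio of its other peaks, rank 27, where the median gene had 1.60. This value includes the peak that CDK6 was picked for and is a description. It was at least 4 times in 30 of these genes (4.65%). Nearest to CDK6 in pooled ratio and in this contrast were DPY19L1, AP3B1 and SH2D4A. DPY19L1 had 4 peaks with a pooled ratio of 2.87 and 11 reads over 1 in its highest peak, AP3B1 had 6 peaks with 2.67 and 26 over 3, and SH2D4A had 3 peaks with 2.97 and 12 over 1. In all of them the highest peak had 3 or fewer input reads.

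CCND1 had the lowest ratio of the 3 genes. Its only peak, on chromosome 11 from 69651621 to 69652030, had 66 reads in the immunoprecipitate and 44 in the input, a ratio of 1.50 (interval 1.01 to 2.25) at the percentile 8.72 of the list. It lies 2444 bp from the higher-coordinate end of the span. Per kb of peak, the input at CCND1 was 107 reads, the highest of the 12 peaks, compared to between 14.0 and 93.0 in the others, while its immunoprecipitate level of 161 reads per kb was within the range of the CDK6 peaks. Among genes with a peak, CCND1 ranked 1865 of 1936 by pooled ratio. Of the peaks on the minus label of chromosome 11, 175 in all, the pooled ratio was 2.07.

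CDK1 lay near the middle of the list. Its first peak, on chromosome 10 from 60791916 to 60792385, held 43 and 19 reads (ratio 2.26, interval 1.29 to 4.11), and its second, from 60793796 to 60794265, held 32 and 17 (ratio 1.88, interval 1.01 to 3.61). CDK1 runs on the plus strand, and its peaks ended 2467 and 587 bp before the 3′ end of its span, so reads near the 3′ end were found here as in CDK6. The pooled ratio was 2.08 (interval 1.38 to 3.19), at rank 1066 of 1936 genes, next to 2.15 for the 520 peaks with the minus label on chromosome 10.

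By pooled ratio the order was thus CDK6, CDK1 and CCND1. The intervals of the neighbours CDK6 and CDK1 overlapped, as did those of CDK1 and CCND1. Those of CDK6 and CCND1 did not, with 2.43 as the lower end for CDK6 and 2.25 as the upper end for CCND1, which is a description of genes picked from these ratios and no test. For 10 of the 12 peaks the interval held the list median of 2.18, the exceptions being the second and the seventh CDK6 peak. The same share over all peaks of the list was not calculated, and the second peak was chosen for its ratio. The count is therefore not read as a result. In the Flag-AKT1 WT list none of the 3 genes had a peak. That list has 0 peaks on chromosome 7, 0 on chromosome 11 and 1 with the minus label on chromosome 10, so it gives no read numbers for these transcripts, and whether their ratios differ between E17K and WT was not tested.

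Further cell cycle genes were counted in 7 lists of 95 genes in all, and 16 of them had an E17K peak, CDK6, CCND1 and CDK1 included. Many genes could not appear: of 82 genes with a known strand, 34 lie on a strand label without any E17K peak and 46 on one with at least 10. Of these 46, 13 (28.3%) had a peak, compared to 1192 of 8490 coding genes (14.0%) on the same labels, in lists that were not matched for expression or length and that count CDK6 and CDK1, which were picked for having peaks. The 16 genes had a median pooled ratio of 2.09, and all 1936 genes with a peak 2.13. A peak with a ratio of at least 4 was found in 3 of the 16 (CDK6, CCNH and MCM4) and in 17.7% of all genes with a peak.

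Of the 13 G1 cyclins and kinases, CDK6, CCND1 and CCNH had peaks. CCNH, the cyclin of the kinase that activates other CDKs, had 5 peaks with 106 and 37 reads, a pooled ratio of 2.86 (interval 1.95 to 4.29). Its highest peak held 16 and 2 reads (ratio 8, interval 1.88 to 71.7). CDK4, the close relative of CDK6, lies on a label without an E17K peak. CCND3, CCNE1, CDK3 and CCNC lie on labels with 13, 66, 51 and 13 peaks and had none. Of the 9 genes of this list with a known strand, 6 lie on labels with at least 10 E17K peaks. On such labels 14.0% of coding genes had a peak, so nothing is read from the genes without one. None of the 7 CDK inhibitors had a peak, and of the 6 with a known strand 4 lie on labels with at least 10. Of the 13 genes of the retinoblastoma and E2F list, 11 have a known strand, 5 of them on such labels and 6 on labels without any E17K peak. E2F5, of unknown strand, had a peak (86 and 42 reads, ratio 2.05). This peak also lies in the span of RBIS and cannot be assigned to either gene. Beside the 14.0% of coding genes with a peak on such labels, both lists are too short for these counts to be read as a result.

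Among 21 regulators of S phase and mitosis, CDK1, CDC20 and CKS1B had peaks. Of the 18 with a known strand, 8 lie on labels with at least 10 E17K peaks and 10 on labels without any. Where a label had at least 10 peaks, 14.0% of coding genes had a peak, so the counts of this and the next list are not read as a result. CDC20, an activator of the anaphase-promoting complex, had 632 and 282 reads (pooled ratio 2.24, interval 1.94 to 2.59), and CKS1B, a small subunit that binds CDKs, 318 and 132 (ratio 2.41, interval 1.96 to 2.97). Both ratios lay within the interval of CDK1, with more reads behind them. Of 16 genes of DNA replication licensing, 5 had peaks. Of the 14 with a known strand, 11 lie on labels with at least 10 E17K peaks and 3 on labels without any. Their median pooled ratio, 1.57, was the lowest of the lists and is the value of 1 gene, ORC5. MCM7 and MCM4, subunits of the replicative helicase, had 1295 and 622 reads (pooled ratio 2.08) and 447 and 213 (2.10). PCNA, the sliding clamp of DNA polymerase, had 123 and 88 reads (1.40, interval 1.05 to 1.86). ORC5 had 74 and 47 reads (1.57, interval 1.08 to 2.32), and MCM6 had 38 and 29 (1.31, interval 0.787 to 2.20). Of these 5 genes, only PCNA had an interval that did not hold 2.13, the median of all genes with a peak. The low median of this list is therefore not read as a result. Finally, SKP1 and CUL1, subunits of the ubiquitin ligase that degrades cell cycle proteins, had 583 and 246 reads (pooled ratio 2.37) and 38 and 14 (2.71).

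**Figure D4:**
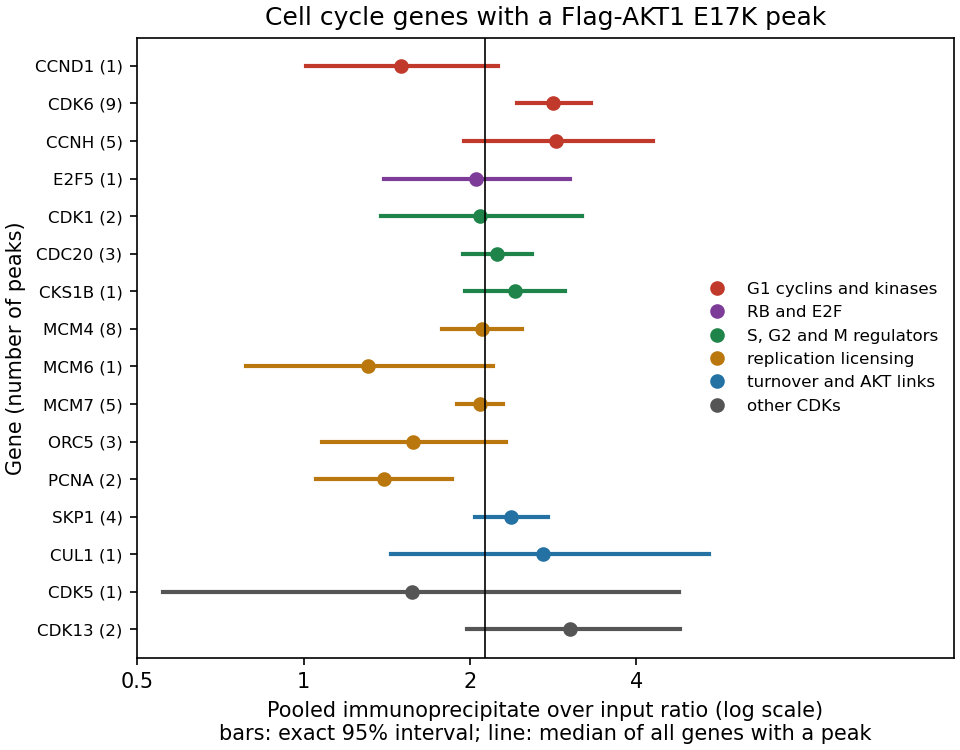
Pooled ratio of immunoprecipitate to input reads (log scale) for the 16 listed cell cycle genes with a Flag-AKT1 E17K peak, with exact 95% intervals and the number of peaks in parentheses, coloured by list. The line is the median of all 1936 genes with a peak, 2.13. The genes run from MCM6 at 1.31 to CDK13 at 3.03, with CDK6 at 2.83.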

How the data were processed

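RIP-seq of MDA-MB-231 cells transfected for Flag-AKT1 WT or Flag-AKT1 E17K gave 4 libraries, 1 per group. The authors deposited 1 peak list per plasmid with raw read counts of the immunoprecipitate and a control for each peak, without normalization. The deposited lists also hold a log odds score and a p-value per peak. The submitters' processing notes name Bowtie2 2.2.8 and hg18, and the peak caller is not given in the sources used here. Samples were grouped by their titles. Peaks within a span of the RefSeq table of GRCh38.p14 (at least 1 bp, no exons) were named after the gene. The ratio is immunoprecipitate over input reads, and 0 input reads were counted as 3. Exact (Clopper-Pearson) 95% intervals of the immunoprecipitate share were turned into ratios. They cover counting error only, since PCR duplicates are not independent molecules. No p-value was calculated, because each group has 1 library and the genes were picked from these ratios. Members and gene lists were chosen with earlier results of these data known. The genes named are CDK6, CCND1 and CDK1, up to 4 genes per list by reads, up to 10 genes with a peak above the highest CDK6 peak, the 3 genes nearest to CDK6, and AKT1. Genes named beyond these, such as MCM6, ORC5, GUSB, NEAT1 and genes without a peak, were chosen after their values were seen. Part of the MDA-MB-231 marker list is not reported here. Annotation and intervals were tested on simulated data. Python 3.11.15, numpy 2.4.6, pandas 2.3.3, scipy 1.17.1 and matplotlib 3.10.9 were used. Alternatives covered low input numbers, an added read, peak order, adjusted p-value, overlap and merging.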

Additional observations from a re-analysis of the deposited data

How the results depend on the processing

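The rank of the highest CDK6 peak was 39 by the plain ratio with 0 input reads counted as 3. It was 1 with input numbers of 3 or fewer counted as 3, and 16 with 1 read added to both numbers. By the lower end of the exact interval it was 3, and by the p-value of the list 2154. With 1 read added to both numbers the ratio of this peak was 8.75, and 1 of the 12 peaks reached a ratio of 4 in place of 2. The other 33 of 38 alternative values stayed within the exact interval of the main value or within 1.5 times the main count, over 9 results. They include values that could not move, such as those with an adjusted p-value of at most 0.001, which all 12 peaks pass. For peaks with at least 10 input reads the rank has no value, since the CDK6 peak has 3, and CCND1 has no value without its highest peak, which is its only one. No paired analysis was possible because each group has 1 library. The precision of the ratio in single peaks is limited by the number of input reads, and no difference between the 3 genes was tested.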

Other observations

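The Flag-AKT1 WT list had peaks at 2 of the 95 cell cycle genes, CCNA2 and MAD2L1, both on chromosome 4 with the plus label, where the E17K list has 0 peaks. CCNA2, which encodes cyclin A2, a partner of CDK1, had 5 peaks with 98 immunoprecipitate and 125 input reads, a ratio of 0.784 (interval 0.596 to 1.03). MAD2L1, a component of the spindle checkpoint, had 61 and 66 reads in 1 peak, a ratio of 0.924 (interval 0.642 to 1.33). The median ratio of that list was 0.976. Among 14 further CDK genes, CDK13, a kinase of transcription elongation, had 88 and 29 reads in 2 peaks of the E17K list (pooled ratio 3.03, interval 1.97 to 4.79), and CDK5, a kinase known for its role in neurons, had 11 and 7 in 1 peak (ratio 1.57, interval 0.556 to 4.78). All 14 have a known strand, 9 of them on labels with at least 10 E17K peaks and 5 on labels without any. CDK13 had the highest pooled ratio of the 16 genes with a peak, with an interval that overlapped that of CDK6.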
